A study of Mus musculus and Homo sapiens with 67 samples.

Results

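The genes described here are 10 members of the matrix metalloproteinase (MMP) system: the proteinases MMP1, MMP2, MMP3, MMP7, MMP9, MMP10, MMP13 and MMP14 and the inhibitors TIMP1 and TIMP3. They were chosen by name, with the mouse gene Mmp1a standing for MMP1, and were matched by symbol, ignoring case, in 4 tables of RNA-seq expression values. All 10 were found in each table, among 60564 listed genes in the human tables and 55335 in the mouse tables. The tables cover PSN1 and SW1990 cells, established human pancreatic ductal adenocarcinoma lines, KPC cells, a mouse line of the same cancer, and orthotopic KPC tumours, which grew in the mouse pancreas. Each model had 4 arms: control (DMSO in the series title), tazemetostat, RMC-6236 and the combination of both drugs, with 3 samples an arm in cells and 4 in tumours. Tazemetostat inhibits EZH2, the methyltransferase that places the repressive H3K27 methyl mark, and RMC-6236 blocks RAS proteins in their active, GTP-loaded state. The labels give no dose, treatment time, KPC genotype, host strain or animal age, and no group carries an allele or agent beyond these. Nothing in them states that the cell samples of an arm were separate cultures, so the spread that p-values measure there may be technical.

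Metalloproteinases are zinc enzymes made as inactive precursors whose prodomain must be cut away. The collagenases MMP1 and MMP13 cleave fibrillar collagen, the stromelysins MMP3 and MMP10 cleave proteoglycans and fibronectin and activate other MMPs, the small enzyme MMP7 (matrilysin) is typical of epithelia, and the gelatinases MMP2 and MMP9 cut denatured collagen and basement membrane. MMP14 is anchored in the cell membrane and activates MMP2. TIMPs bind the active site of these enzymes and block it, and TIMP3, which is held in the matrix, also blocks several ADAM and ADAMTS proteases. Pancreatic cancer is known for its dense collagen stroma, in which tumour cells, fibroblasts and myeloid cells all make MMPs. AP-1 and ETS transcription factors, which act downstream of RAS, are known to bind MMP promoters.

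Promoter sequences are shown because several of these genes carry the recognition motif of AP-1, a factor downstream of RAS, close to their start. The motif searched was TGANTCA on both strands, in RefSeq promoters of the mouse build GRCm38.p6, where 8 of the 10 genes had an entry. It was found in the 250 bases before the start of 5 of these 8 genes, and in 6.75% of all 32851 promoters of the same length. That share counts single entries, while a gene here counts if any of its entries has the motif. The printed stretches are the 100 bases before the RefSeq start, on the plus strand, with the motif in capitals:
Mmp13, chr9:7272414-7272513: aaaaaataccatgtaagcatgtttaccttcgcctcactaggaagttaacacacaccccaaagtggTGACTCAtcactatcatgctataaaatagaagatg
Mmp3, chr9:7445722-7445821: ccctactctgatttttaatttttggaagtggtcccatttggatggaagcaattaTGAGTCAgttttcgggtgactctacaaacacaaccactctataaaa
Mmp1a, chr9:7464041-7464140: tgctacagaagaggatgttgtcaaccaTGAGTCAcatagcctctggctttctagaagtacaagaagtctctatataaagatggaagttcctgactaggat
Mmp10, chr9:7502242-7502341: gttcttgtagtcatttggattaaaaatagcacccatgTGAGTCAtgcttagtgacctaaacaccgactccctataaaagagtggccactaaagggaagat
Mmp7, chr9:7691990-7692089: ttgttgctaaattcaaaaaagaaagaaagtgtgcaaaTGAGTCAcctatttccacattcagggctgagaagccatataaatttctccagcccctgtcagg
The 3 genes below have an entry without the motif:
Mmp14, chr14:54431498-54431597: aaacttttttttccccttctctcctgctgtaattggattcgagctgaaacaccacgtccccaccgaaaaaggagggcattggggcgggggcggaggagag
Timp3, chr10:86300312-86300411: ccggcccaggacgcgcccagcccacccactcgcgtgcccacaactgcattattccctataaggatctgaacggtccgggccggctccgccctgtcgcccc
Timp1, chrX:20870066-20870165: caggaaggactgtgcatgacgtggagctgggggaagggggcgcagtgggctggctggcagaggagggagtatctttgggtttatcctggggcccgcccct

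Counting back from the start, the first base of the motif lay at position -35 in Mmp13, -46 in Mmp3, -63 in Mmp10, -63 in Mmp7 and -73 in Mmp1a. These 5 genes lie together on mouse chromosome 9. Mmp7 has another RefSeq start with no motif in its window. The ETS core GGAA was present before the start of all 8 genes with an entry, but 93.4% of all promoters hold it in the same length, so it does not set these genes apart. In KPC cells with RMC-6236, where 37.9% of all genes tested rose and 35.8% fell, genes with and without the motif were called. Among the 5 with it Mmp10 and Mmp13 rose, Mmp3 fell, Mmp7 was not called and Mmp1a was listed at 0. Of those that lack it Mmp14 and Timp3 rose and Timp1 fell. Whether the motif bears on these changes was not tested. A match of letters is a description, and no match says nothing of the factor. Mmp2 and Mmp9 had no entry.

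Values are FPKM, fragments scaled to transcript length and library size. Read depth is unknown, because FPKM keep no totals, and precision is read from the spread between samples. Differences are of mean log2(FPKM + 1), with limma standard errors (SE), and understate the change of genes near 0 FPKM. A gene was tested where enough libraries reached 1 FPKM (3 in cells, 4 in tumours), and it is said to rise or fall where its Benjamini-Hochberg adjusted p over all genes tested was under 0.05. The interaction is the combination's difference from control minus the sum of the 2 single-drug differences, so it is 0 where the drugs add up on this scale. No 2 libraries were identical, and the library least like its own arm was tumour combination replicate 3, with a median correlation of 0.971. Epithelial markers (EPCAM, KRT8, KRT18, KRT19, CDH1 and CLDN4) reached a mean of 1 FPKM for 6 of 6 genes in PSN1, SW1990 and the tumours and 5 of 6 in KPC cells, where Cldn4 stayed lower.

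In PSN1 cells the most abundant member was the inhibitor TIMP1, and the collagenases MMP1 and MMP13 changed most. Of the 10 members 6 were tested. With tazemetostat 4 rose (MMP1, MMP7, MMP13 and TIMP1), where 23.6% of all 13358 genes tested rose, and TIMP3 fell, where 22.5% fell. With RMC-6236 MMP2, MMP7 and MMP13 rose (45.8% of all genes) and MMP1, TIMP1 and TIMP3 fell (34.6%). The combination gave the same 3 rises and 3 falls against control, beside 45.5% and 37.1% of all genes. Against RMC-6236 alone the combination had 5 of the 6 higher and TIMP3 lower, beside 24.1% and 30.1%. Against tazemetostat alone MMP2, MMP7 and MMP13 were higher and MMP1, TIMP1 and TIMP3 lower, beside 43.8% and 36.1%. The interaction was above 0 for MMP7 and MMP13 (9.80% of all genes) and below 0 for MMP1 and TIMP1 (13.8%), and over all genes it split 13.6% to 11% once libraries were rescaled by their median ratio. MMP2, MMP7 and MMP13 reached the floor through the arms where they were high, so their rises say nothing of the family as a whole.

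In SW1990 cells the collagenase MMP1 and the inhibitor TIMP1 moved in the same directions as in PSN1, with rises with tazemetostat and falls with RMC-6236, and MMP14 was the most abundant of the proteinases among the 10 genes. Of 8 members tested, tazemetostat raised MMP1, MMP2, MMP7, MMP9 and TIMP1 (5 genes, beside 23.1% of all 12913 tested) and lowered MMP14 (beside 14.4%). With libraries rescaled by the median ratio the shares over all genes were 20.8% in each direction. RMC-6236 raised MMP7, MMP13, MMP14 and TIMP3 (30.7% of all genes) and lowered MMP1 and TIMP1 (41.7%). The combination raised 7 members and lowered MMP1 against control, beside 38.3% and 40.9%. Against RMC-6236 alone 6 were higher, and MMP14 and TIMP3 were lower, beside 29.8% and 18.3%, or 26.3% and 26.2% after rescaling. Against tazemetostat alone 6 were higher, and MMP1 and TIMP1 were lower, beside 33.6% and 42.3%. The interaction was positive for MMP2, MMP7, MMP13 and MMP14 (9.03% of all genes) and negative for MMP1 and TIMP3 (6.19%). MMP7 passed the floor only through the combination arm, and MMP9 and MMP13 only through the treated arms where they were high.

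In KPC cells Mmp13 was high already in controls, and Timp3 had the widest span of arm means among the members there. Of 7 tested members, tazemetostat raised Mmp3, Mmp13 and Timp1 (18.6% of all 12567 genes) and lowered Timp3 (25.5%). RMC-6236 raised Mmp10, Mmp13, Mmp14 and Timp3 (37.9%) and lowered Mmp3 and Timp1 (35.8%). The combination had the same 4 rises and 2 falls against control, beside 37.8% and 38.7%, and also against tazemetostat alone, beside 39.0% and 37.3%. Against RMC-6236 alone Mmp3 and Mmp13 were higher and Mmp14 and Timp3 lower, beside 20.3% and 28.5%. The interaction was above 0 for Mmp13 (12.1% of all genes) and below 0 for Mmp14 and Timp1 (13.7%).

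In the orthotopic tumours the members called against control were Mmp2, Mmp3, Mmp14 and Timp1, and they rose. Of 9 tested members none was called with tazemetostat alone by limma, as for all 13545 genes (0% rose and 0% fell). At an unadjusted p under 0.05 the count was 1 member, Timp1, and 678 higher and 345 lower genes in all. RMC-6236 raised those 4 members and lowered 0, where 20.3% of all genes rose and 19.2% fell. The combination raised the same 4 members against control and lowered 0, beside 26.7% and 25.7%. Against RMC-6236 alone Mmp2, Mmp3 and Timp1 were higher and 0 lower, beside 5.16% and 2.97% of all genes. Against tazemetostat alone Timp3 joined the 4 higher members, with 0 lower, beside 24.7% and 26.3%. The interaction was called for Mmp2 alone among the 9, upwards, beside 1.49% of all genes upwards and 0.369% downwards.

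**Figure D1:**
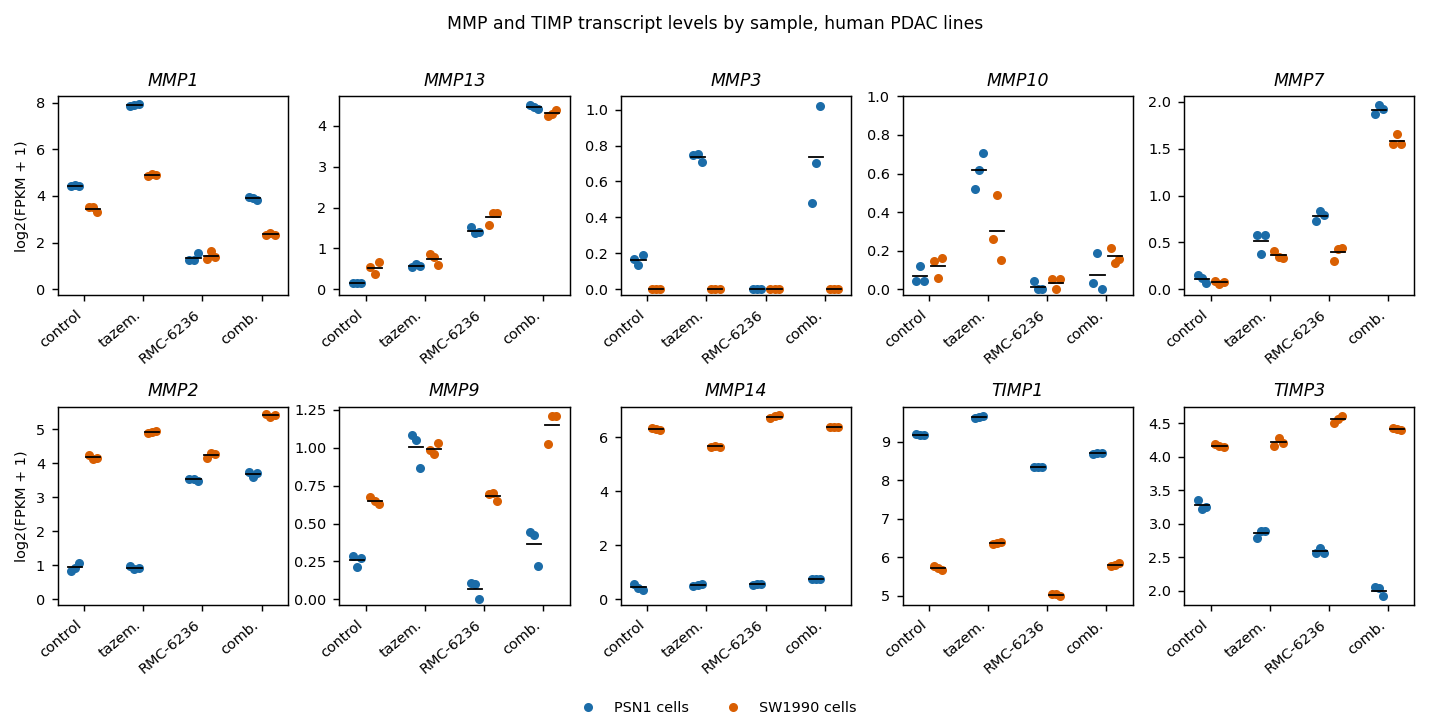
Transcript levels of the 10 genes as log2(FPKM + 1), 1 point per sample and a bar at the arm mean, in PSN1 (blue) and SW1990 cells (orange), 3 samples an arm, each panel with its own vertical scale. MMP1 is highest with tazemetostat and lowest with RMC-6236 in both lines, and MMP13 is highest in the combination.

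The collagenase MMP1 moved in opposite directions with the 2 drugs in both human lines. In PSN1 it stood at 20.6, 20.9 and 20.2 FPKM in controls, at 228, 236 and 244 after tazemetostat, at 1.41, 1.36 and 1.95 with RMC-6236 and at 14.4, 14.3 and 13.4 with the combination. No 2 arms overlapped, and the order from the highest was tazemetostat, control, combination and RMC-6236. The mean was 11.5-fold higher with tazemetostat (difference 3.46, SE 0.07, adjusted p = 8.9e-12) and 13.1-fold lower with RMC-6236 (difference -3.08, SE 0.07, adjusted p = 1.6e-12). Under the combination MMP1 was 1.47-fold lower than in controls (adjusted p = 1.8e-05) and 8.90-fold higher than with RMC-6236 alone (adjusted p = 4.2e-11).

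In SW1990 cells MMP1 read 10.5, 10.5 and 9.08 FPKM in controls and 28.2, 30.0 and 29.1 with tazemetostat. With RMC-6236 it read 1.46, 2.14 and 1.61, and with the combination 4.06, 4.37 and 4.07. The arms again did not overlap and had the same order as in PSN1. The difference from control was 1.45 with tazemetostat (SE 0.08, adjusted p = 3.3e-08), -2.02 with RMC-6236 (SE 0.08, adjusted p = 1.1e-10) and -1.09 with the combination (SE 0.08, adjusted p = 2.9e-08). The MMP1 interaction was -0.91 in PSN1 (adjusted p = 3.6e-05) and -0.53 in SW1990 (adjusted p = 0.00716), but with a pseudocount of 0.1 it was -0.42 (adjusted p = 0.0646) and -0.30 (adjusted p = 0.244), so a departure from additivity was not stable for MMP1. The mouse gene Mmp1a was listed at 0 in every KPC library, in cells and in tumours.

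The collagenase MMP13 was near the floor in human controls and rose with RMC-6236, and the combination gave its highest level. PSN1 controls held 0.116, 0.112 and 0.118 FPKM, tazemetostat samples 0.449, 0.528 and 0.481, RMC-6236 samples 1.86, 1.58 and 1.65 and combination samples 21.7, 21.0 and 20.2. In SW1990 cells the levels were 0.454, 0.289 and 0.595 in controls, 0.815, 0.739 and 0.507 with tazemetostat, 1.996, 2.62 and 2.67 with RMC-6236 and 18.1, 18.7 and 19.9 with the combination. Every combination sample lay above every other sample of its line. The combination exceeded RMC-6236 alone 12.4-fold in PSN1 (difference 3.03, SE 0.05, adjusted p = 1.0e-13) and 7.77-fold in SW1990 (difference 2.54, SE 0.10, adjusted p = 5.2e-10).

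The sum of the single-drug differences fell short of the combination for MMP13 in both human lines. The interaction was 2.61 in PSN1 (SE 0.07, adjusted p = 1.5e-10) and 2.32 in SW1990 (SE 0.14, adjusted p = 3.7e-07). It was called at every alternative setting run, the lower pseudocount included. Tazemetostat alone raised MMP13 in PSN1 by 0.41 (adjusted p = 1.7e-05). In SW1990 that difference, 0.22, did not pass (adjusted p = 0.0912), and it passed at adjusted p of 0.0414 to 0.0458 without control replicate 3, tazemetostat replicate 3 or RMC-6236 replicate 1 and at 0.0457 with a pseudocount of 0.1. Because MMP13 was below 1 FPKM in controls, its single-drug differences depend on the pseudocount: with 0.1, RMC-6236 against control was 3.06 in place of 1.27 in PSN1 and 2.24 in place of 1.25 in SW1990, and the combination against control in PSN1 was 6.61 in place of 4.30.

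In KPC cells Mmp13 started from a higher level and rose in smaller steps. Controls read 23.4, 24.9 and 24.2 FPKM, tazemetostat samples 44.0, 46.1 and 44.2, RMC-6236 samples 28.6, 26.6 and 29.2 and combination samples 63.1, 64.3 and 62.9. No arms overlapped. The mean was 1.85-fold higher with tazemetostat (adjusted p = 3.2e-09), 1.16-fold with RMC-6236 (adjusted p = 0.000192) and 2.63-fold with the combination (adjusted p = 2.2e-12). The interaction was 0.28 (SE 0.05, adjusted p = 0.00145). Whether the size of this interaction differs from that in the human lines was not tested, because the tables were normalized separately.

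In tumours no comparison of Mmp13 was called. Controls held 5.67, 5.70, 6.46 and 2.47 FPKM, tazemetostat samples 6.22, 11.7, 5.43 and 8.66, RMC-6236 samples 3.28, 4.76, 1.67 and 2.56 and combination samples 4.50, 10.8, 4.67 and 5.94. Every treated arm overlapped the controls. The difference of RMC-6236 from control was -0.58 (SE 0.31, adjusted p = 0.16), and without control replicate 4 it was -0.83 (adjusted p = 0.0462).

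**Figure D2:**
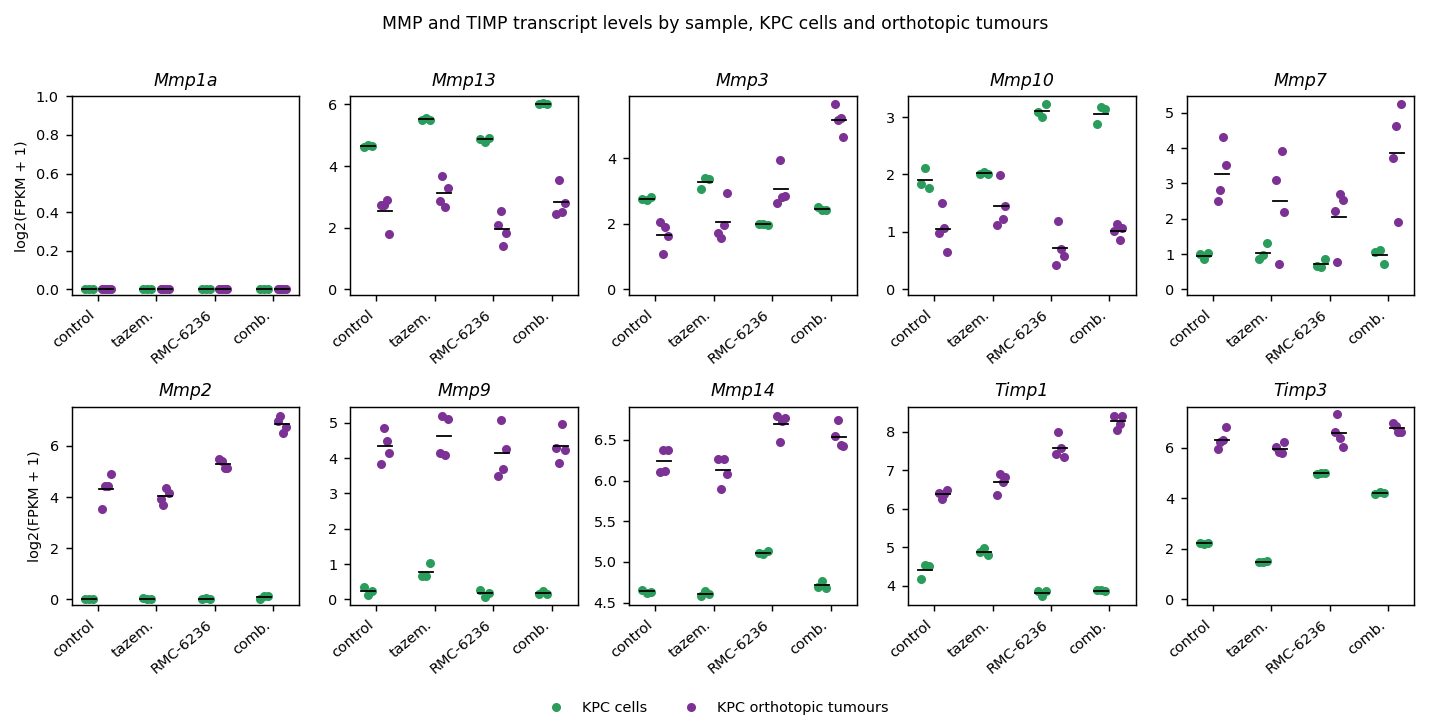
The same 10 genes in KPC cells (green, 3 samples an arm) and KPC orthotopic tumours (purple, 4 an arm), as log2(FPKM + 1) with a bar at the arm mean and a separate vertical scale per panel. Mmp3 and Timp1 fall with RMC-6236 in cells and rise in tumours, and Mmp2 is near 0 in cells and rises in tumours.

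The stromelysin Mmp3 fell with RMC-6236 in KPC cells and rose with it in KPC tumours. In cells the levels were 5.80, 5.65 and 6.03 FPKM in controls, 7.33, 9.55 and 9.23 with tazemetostat, 3.003, 3.002 and 2.93 with RMC-6236 and 4.72, 4.32 and 4.37 with the combination. The 4 arms did not overlap and ran from tazemetostat through control and combination to RMC-6236, the order that MMP1 had in the human lines. The difference from control was 0.50 with tazemetostat (adjusted p = 0.000133), -0.78 with RMC-6236 (adjusted p = 5.5e-07) and -0.32 with the combination (adjusted p = 0.00134).

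Tumour controls held 3.13, 1.12, 2.75 and 2.07 FPKM of Mmp3, and tazemetostat samples 2.27, 1.95, 2.93 and 6.74. RMC-6236 samples held 5.19, 14.5, 6.11 and 6.27, and combination samples 49.8, 34.7, 36.7 and 23.9. Controls and tazemetostat overlapped, RMC-6236 lay above the controls, and the combination lay above all other tumours. The mean was 3.53-fold higher with RMC-6236 (difference 1.405, SE 0.34, adjusted p = 0.00545) and 16.0-fold higher with the combination (difference 3.51, SE 0.34, adjusted p = 1.8e-06). The combination exceeded RMC-6236 alone 4.53-fold (adjusted p = 0.0018). The interaction of 1.72 did not pass (SE 0.49, adjusted p = 0.0967), and it passed without tazemetostat replicate 4 (2.02, adjusted p = 0.0296) or without RMC-6236 replicate 2 (2.02, adjusted p = 0.033).

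In the human lines MMP3 was not tested. It was listed at 0 in every SW1990 library and in the PSN1 libraries with RMC-6236. The other PSN1 arms had means of 0.121 FPKM in controls, 0.666 with tazemetostat and 0.684 with the combination, where the samples ranged from 0.394 to 1.03.

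The other stromelysin, Mmp10, rose with RMC-6236 in KPC cells and was low elsewhere. Its levels were 2.56, 3.33 and 2.40 FPKM in controls, 3.02, 3.15 and 3.03 with tazemetostat, 7.51, 7.04 and 8.32 with RMC-6236 and 6.32, 8.03 and 7.80 with the combination. Control and tazemetostat overlapped, as did RMC-6236 and the combination, and the 2 pairs were apart. The mean was 2.76-fold higher with RMC-6236 (difference 1.20, SE 0.10, adjusted p = 1.4e-07) and 2.67-fold higher with the combination (adjusted p = 1.5e-07). In tumours Mmp10 ranged from 0.333 to 2.97 FPKM over all 16 samples and no comparison was called. The human gene stayed under 1 FPKM in all libraries and was not tested, with its highest arm mean, 0.535, in PSN1 with tazemetostat.

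MMP7, the matrilysin, was also raised by the combination in both human lines. In PSN1 it read 0.108, 0.0837 and 0.0446 FPKM in controls, 0.499, 0.295 and 0.494 with tazemetostat, 0.653, 0.786 and 0.728 with RMC-6236 and 2.66, 2.90 and 2.78 with the combination. In SW1990 it read 0.0643, 0.0421 and 0.0547 in controls, 0.330, 0.266 and 0.258 with tazemetostat, 0.234, 0.351 and 0.360 with RMC-6236 and 1.94, 2.15 and 1.92 with the combination. Both single drugs lay above control and below the combination in each line, and in SW1990 they overlapped each other. The combination was 3.85-fold above RMC-6236 alone in PSN1 (adjusted p = 1.5e-08) and 6.35-fold in SW1990 (adjusted p = 2.6e-09). In both lines only combination libraries reached 1 FPKM. MMP7 was thus tested only because it was high in that arm, and the p-values of its rise there carry that selection.

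Levels this low make the MMP7 differences depend on the pseudocount. The combination against control was 1.81 in PSN1 and 1.51 in SW1990, and 4.03 and 3.77 with a pseudocount of 0.1. The interaction was called in SW1990 (0.91, adjusted p = 7.8e-06). In PSN1 it was 0.73 (adjusted p = 9.1e-05), and with a pseudocount of 0.1 it was 0.25 and did not pass (adjusted p = 0.562). Both interactions measure an excess in the arm through which MMP7 came to be tested, so their p-values carry that selection too.

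In the mouse models no comparison of Mmp7 was called, although the difference between RMC-6236 and control in KPC cells (-0.24, adjusted p = 0.115) passed with only those arms in the fit (adjusted p = 0.039). KPC cells ranged from 0.559 to 1.46 FPKM over the 12 libraries, with all arms overlapping. In tumours it varied widely within arms: controls read 4.61, 6.01, 18.8 and 10.4 FPKM, tazemetostat samples 7.58, 0.650, 14.3 and 3.60, RMC-6236 samples 3.62, 0.710, 5.55 and 4.74 and combination samples 12.1, 23.7, 2.77 and 36.8. Its interaction in tumours was 2.61 with an SE of 1.08 (adjusted p = 0.275). The difference between the combination and tazemetostat was 1.38 (adjusted p = 0.148) and passed without combination replicate 3 (2.04, adjusted p = 0.0293). That tumour also had the lowest sum of acinar markers in its arm, 64.0 FPKM, against 489.5, 884.9 and 2406 in replicates 1, 2 and 4. Within each treated arm the tumours had the same order by Mmp7 as by this sum, while in controls the order differed. Whether acinar tissue bears on the spread of Mmp7 was not tested. In KPC cells the combination differed from RMC-6236 by 0.24 (adjusted p = 0.142), which passed without combination replicate 3 (0.37, adjusted p = 0.0309).

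**Figure D3:**
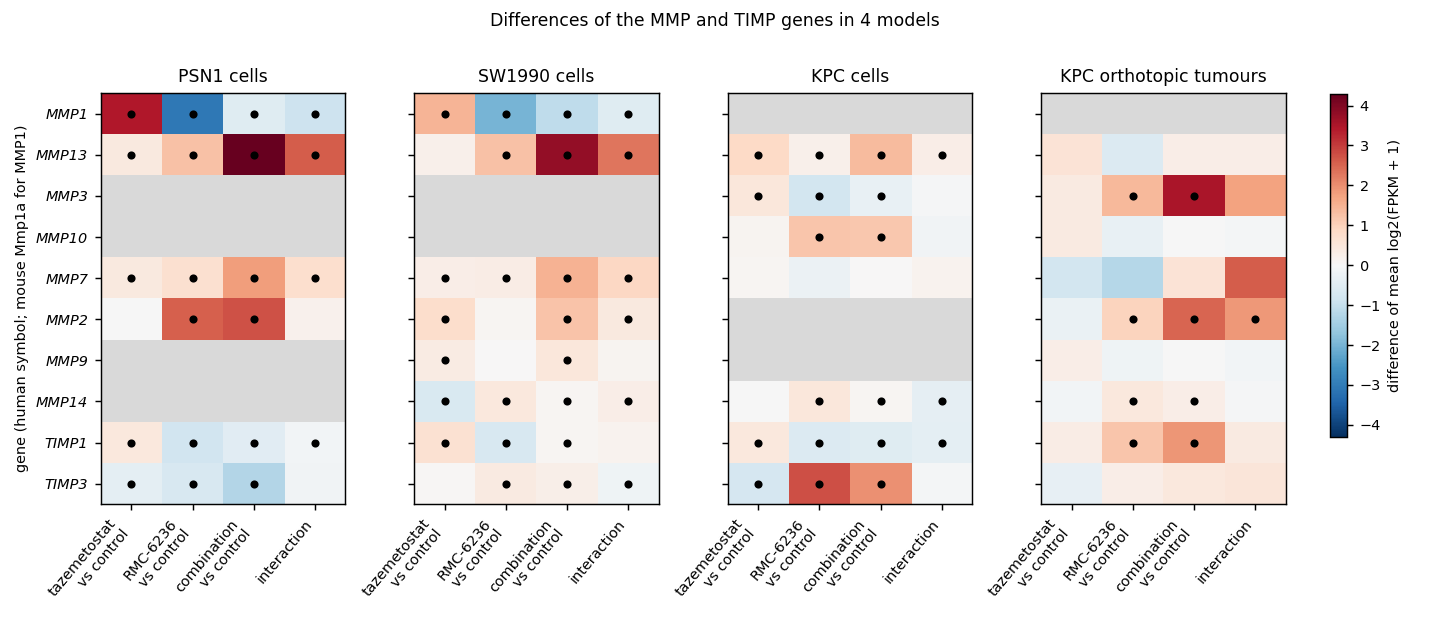
Differences of mean log2(FPKM + 1) for 3 comparisons with control and the interaction, by gene (rows) and model (panels), red for higher and blue for lower, with a dot where limma's adjusted p was under 0.05 and grey where a gene was not tested. MMP13 is darkest in the combination in the human lines, and the tazemetostat column of the tumours holds no dot.

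The gelatinase MMP2 was called with RMC-6236 alone in PSN1 and with tazemetostat alone in SW1990, and the combination raised it in both lines. Whether the lines differ was not tested. In PSN1 its levels were 0.781, 0.898 and 1.10 FPKM in controls and 0.975, 0.870 and 0.892 with tazemetostat, against 10.7, 10.6 and 10.2 with RMC-6236 and 12.3, 11.2 and 12.2 with the combination. In SW1990 the levels were 17.9, 16.4 and 16.6 in controls, 28.5, 29.3 and 29.6 with tazemetostat, 16.8, 18.8 and 18.5 with RMC-6236 and 42.2, 40.1 and 41.4 with the combination. So control and tazemetostat overlapped in PSN1, and control and RMC-6236 overlapped in SW1990.

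RMC-6236 raised MMP2 in PSN1 by 2.58 (SE 0.06, adjusted p = 4.4e-13), and tazemetostat left it within the control spread (difference -0.01, SE 0.06, adjusted p = 0.921). In SW1990 tazemetostat raised it 1.72-fold (adjusted p = 7.8e-08), and RMC-6236 gave a difference of 0.08 that did not pass (SE 0.05, adjusted p = 0.139). That difference did pass after rescaling of the libraries (0.17, adjusted p = 0.00354), and without control replicate 1 or RMC-6236 replicate 1 (0.12 and 0.13, adjusted p = 0.0413 and 0.012). The combination was 2.43-fold above control in SW1990 (adjusted p = 2.6e-11) and above tazemetostat alone by 0.49 (adjusted p = 4.8e-07), with an interaction of 0.41 (SE 0.07, adjusted p = 0.000984). In PSN1 the small excess over RMC-6236 alone, 0.16 (adjusted p = 0.0306), lost its call with a pseudocount of 0.1 (adjusted p = 0.134), with no filter on low values (adjusted p = 0.0736) and, at 0.0599 to 0.103, without RMC-6236 replicate 2 or 3 or combination replicate 1 or 3.

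Mmp2 was listed at or near 0 in cultured KPC cells, with 8 libraries listed at 0 and at most 0.108 FPKM in the others, and it was expressed in KPC tumours. Tumour controls held 10.6, 20.4, 20.7 and 28.5 FPKM, tazemetostat samples 14.0, 11.8, 19.4 and 17.0, RMC-6236 samples 43.6, 41.2, 33.7 and 34.2 and combination samples 123, 144, 89.0 and 105. Every RMC-6236 tumour exceeded every control, and every combination tumour exceeded every RMC-6236 tumour. The mean was 1.90-fold higher with RMC-6236 (difference 0.96, SE 0.24, adjusted p = 0.00528) and 5.75-fold higher with the combination (difference 2.52, SE 0.24, adjusted p = 1.1e-06). The combination was 3.02-fold above RMC-6236 alone (adjusted p = 0.000987), and the interaction was 1.85 (SE 0.33, adjusted p = 0.0117).

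The other gelatinase, MMP9, had its higher levels in arms with tazemetostat in SW1990 and was not called in tumours. In SW1990 controls it read 0.593, 0.566 and 0.546 FPKM, tazemetostat samples 0.982, 0.947 and 1.04, RMC-6236 samples 0.615, 0.623 and 0.571 and combination samples 1.03, 1.31 and 1.31. Control and RMC-6236 samples overlapped and lay below both arms with tazemetostat. It rose with tazemetostat (difference 0.34, adjusted p = 0.000438) and the combination (0.50, adjusted p = 2.8e-06). The step from tazemetostat to the combination, 0.15 (adjusted p = 0.0268), had overlapping samples and lost its call with only those arms in the fit (0.0526) and, at 0.0615 to 0.106, without tazemetostat replicate 1 or 2 or combination replicate 2 or 3. In PSN1 MMP9 was not tested, and its means were 0.196 FPKM in controls, 1.01 in the tazemetostat arm, 0.0504 in the RMC-6236 arm and 0.29 in the combination arm. KPC cells, where it was not tested either, had their highest mean with tazemetostat too (0.738 FPKM, against 0.177 in controls). In tumours it ranged from 10.3 to 35.7 FPKM over the 16 samples, no comparison was called, and the combination's difference from control was -0.0015 with an SE of 0.37.

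MMP14, the membrane-bound activator of MMP2, rose with RMC-6236 in the 3 models where it was tested. In SW1990 it stood at 80.8, 77.3 and 76.6 FPKM in controls, 49.4, 50.5 and 49.0 with tazemetostat, 103, 109 and 111 with RMC-6236 and 83.1, 82.3 and 83.1 with the combination. In KPC cells controls read 24.3, 23.6 and 23.8, tazemetostat samples 22.9, 23.9 and 23.3, RMC-6236 samples 33.6, 33.1 and 34.1 and combination samples 24.8, 26.2 and 24.7. In both lines the combination returned near the control level. RMC-6236 raised it 1.38-fold in SW1990 (adjusted p = 4.5e-08) and 1.41-fold in KPC cells (adjusted p = 1.3e-08).

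Against RMC-6236 alone the combination had less MMP14, by 0.38 in SW1990 (a difference of -0.38, adjusted p = 1.1e-06) and by 0.40 in KPC cells (-0.40, adjusted p = 4.0e-07). Tazemetostat alone lowered it in SW1990 by 1.58-fold (adjusted p = 1.7e-08) and gave -0.03 in KPC cells (adjusted p = 0.47). The interaction had opposite signs, 0.27 in SW1990 (adjusted p = 0.00185) and -0.37 in KPC cells (adjusted p = 4.2e-05). The combination's small excess over control was not stable in either line. In SW1990 it was 0.08 (adjusted p = 0.0412) and lost its call without any of 9 of the 12 libraries, all but control replicate 1 and RMC-6236 replicates 1 and 3 (adjusted p = 0.0502 to 0.125). In KPC cells it was 0.08 (adjusted p = 0.0378) and lost its call without control replicate 2 or 3 or combination replicate 2 (adjusted p = 0.077 to 0.161), and it was 0.05 without the last of these.

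In tumours Mmp14 read 67.9, 81.8, 68.1 and 82.0 FPKM in controls, 76.0, 58.3, 75.9 and 66.7 with tazemetostat, 110, 87.9, 105 and 108 with RMC-6236 and 92.2, 107, 85.3 and 84.7 with the combination. RMC-6236 and combination tumours overlapped each other and lay above the controls. The difference was 0.45 with RMC-6236 (SE 0.10, adjusted p = 0.00364) and 0.30 with the combination (SE 0.10, adjusted p = 0.028). The latter lost its call with no filter on low values (adjusted p = 0.0574) and, at adjusted p of 0.0534 to 0.0956, without control replicate 1 or 3 or combination replicate 1 or 2. In PSN1 MMP14 stayed under 1 FPKM, with arm means from 0.375 to 0.699, and was not tested.

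The inhibitor TIMP1 rose with tazemetostat and fell with RMC-6236 in all 3 cell lines. In PSN1 it stood at 586, 573 and 573 FPKM in controls, 777, 801 and 816 with tazemetostat, 324, 325 and 324 with RMC-6236 and 410.4, 414 and 414 with the combination. In SW1990 it read 53.9, 51.7 and 50.2 in controls, 80.5, 81.5 and 83.5 with tazemetostat, 32.1, 31.9 and 30.8 with RMC-6236 and 54.1, 54.5 and 57.3 with the combination. In KPC cells it read 17.3, 22.5 and 21.7 in controls, 28.4, 30.4 and 26.9 with tazemetostat, 13.7, 12.3 and 13.5 with RMC-6236 and 13.9, 13.8 and 13.6 with the combination. In each line the tazemetostat arm was the highest, and the RMC-6236 arm was the lowest but for an overlap with the combination in KPC cells.

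Tazemetostat raised TIMP1 1.38-fold in PSN1 (adjusted p = 3.8e-10), 1.58-fold in SW1990 (adjusted p = 2.5e-08) and 1.39-fold in KPC cells (adjusted p = 0.00058). RMC-6236 lowered it 1.78-fold (adjusted p = 1.9e-13), 1.64-fold (adjusted p = 9.9e-10) and 1.55-fold (adjusted p = 2.6e-05). The combination left it below control in PSN1 (-0.48, adjusted p = 2.1e-11) and KPC cells (-0.53, adjusted p = 5.4e-05). In SW1990 the combination was 0.09 above control (adjusted p = 0.0323), a call lost after rescaling (0.0571), with the compared arms only (0.0553), without trend and robust (0.0634) and, at 0.0737 to 0.147, without control replicate 2 or 3 or combination replicate 3. The interaction was -0.12 in PSN1 (adjusted p = 0.0028) and -0.08 after rescaling (adjusted p = 0.0119). It was 0.14 in SW1990, where it did not pass (adjusted p = 0.08) and did without RMC-6236 replicate 1 (0.15, adjusted p = 0.0471), and -0.41 in KPC cells (adjusted p = 0.0193), where it lost its call with no filter on low values (0.0615).

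In KPC tumours Timp1 went the other way and rose with RMC-6236. Controls read 83.5, 76.1, 82.8 and 88.6 FPKM, tazemetostat samples 80.6, 118, 102 and 113, RMC-6236 samples 171, 254, 190.4 and 163 and combination samples 342, 263, 293 and 339. Every combination tumour exceeded every RMC-6236 tumour, which exceeded every control and tazemetostat tumour. The mean was 2.35-fold higher with RMC-6236 (difference 1.20, SE 0.14, adjusted p = 1.9e-05), 3.74-fold with the combination (difference 1.88, SE 0.14, adjusted p = 1.1e-07) and 1.59-fold higher in the combination than with RMC-6236 alone (adjusted p = 0.00674). The difference of 0.31 with tazemetostat did not pass (unadjusted p = 0.044, adjusted p = 0.652), and neither did the interaction (0.37, adjusted p = 0.424).

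TIMP3, the matrix-bound inhibitor, had a different pattern in each cell line. PSN1 had 9.29, 8.33 and 8.55 FPKM in controls, 5.91, 6.46 and 6.42 with tazemetostat, 4.95, 5.22 and 4.90 with RMC-6236 and 3.17, 3.11 and 2.79 with the combination, so each drug lowered it and the combination was lowest. SW1990 had 17.2, 17.0 and 16.8 in controls, 16.9, 18.6 and 17.4 with tazemetostat, 21.8, 22.6 and 23.6 with RMC-6236 and 20.6, 20.4 and 20.1 with the combination. KPC cells had 3.73, 3.52 and 3.64 in controls, 1.77, 1.81 and 1.87 with tazemetostat, 30.1, 31.3 and 31.2 with RMC-6236 and 16.7, 17.7 and 17.3 with the combination. Apart from the control and tazemetostat arms of SW1990, no arms overlapped.

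RMC-6236 raised Timp3 8.49-fold in KPC cells (difference 2.78, SE 0.04, adjusted p = 1.9e-14) and 1.33-fold in SW1990 (adjusted p = 1.2e-06) and lowered it 1.74-fold in PSN1 (adjusted p = 4.4e-08). Tazemetostat lowered it 1.999-fold in KPC cells (adjusted p = 1.1e-08) and 1.39-fold in PSN1 (adjusted p = 2.4e-05). In all 3 lines the combination was below RMC-6236 alone, by 1.79-fold in KPC cells (adjusted p = 3.0e-09), 1.66-fold in PSN1 (adjusted p = 7.1e-07) and 1.11-fold in SW1990 (adjusted p = 0.00902). The interaction did not pass in PSN1 (-0.16, adjusted p = 0.124) or KPC cells (-0.08, SE 0.05, adjusted p = 0.25). In SW1990 it was -0.20 (adjusted p = 0.0348), and that call was lost without any of 9 of the 12 libraries, all but control replicate 1, tazemetostat replicate 1 and RMC-6236 replicate 1 (adjusted p = 0.0608 to 0.0909), and with no filter on low values (0.052).

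In tumours Timp3 was not called against control. It read 60.8, 73.1, 77.0 and 111 FPKM in controls, 63.7, 55.8, 53.6 and 73.6 with tazemetostat, 97.5, 160, 82.5 and 63.3 with RMC-6236 and 123, 116, 96.2 and 97.6 with the combination. The control arm overlapped all others. The combination's difference from control was 0.45 (SE 0.23, adjusted p = 0.121) and passed without control replicate 4 (0.61, adjusted p = 0.042) or RMC-6236 replicate 2 (0.45, adjusted p = 0.0438). It exceeded tazemetostat alone by 0.80 (SE 0.23, adjusted p = 0.00999).

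**Figure D4:**
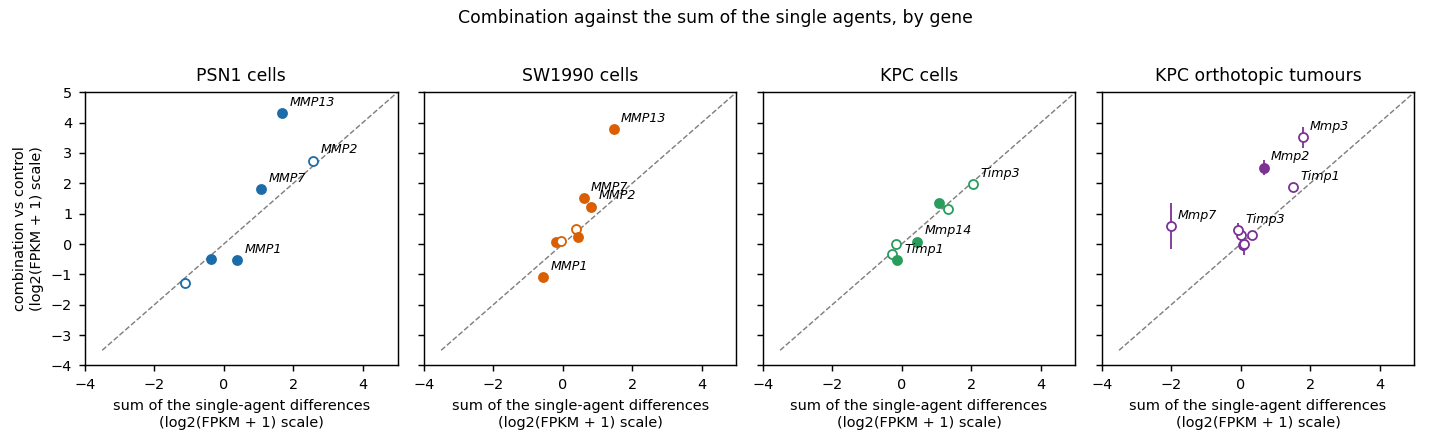
Each tested gene as a point, with the sum of its tazemetostat and RMC-6236 differences from control on the horizontal axis and the combination's difference on the vertical axis, both of mean log2(FPKM + 1), with a limma SE as the error bar. The dashed line marks equality, filled points have a called interaction, and MMP13 in both human lines and Mmp2 in tumours lie above the line.

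Cell type markers moved with the tumour arms, and they are given beside the tumour results. In a bulk sample, more cells of a type and more RNA per cell cannot be told apart. The summed FPKM of 9 fibroblast markers, all 9 at a mean of 1 FPKM or more in each arm, ranged from 852 to 1166 in controls, 588 to 1317 with tazemetostat, 2957 to 3938 with RMC-6236 and 3260 to 3806 with the combination. For 8 macrophage markers, all 8 at that level, the sums were 462 to 591, 412 to 655, 1139 to 1643 and 1480 to 2054. So both sums were higher in every RMC-6236 and combination tumour than in any control, as were Mmp2, Mmp3, Mmp14 and Timp1. The sums are carried by their most abundant genes, Col1a1 and Col3a1 for fibroblasts and Lyz2 for macrophages, and single markers differed. Lum averaged 26.8 FPKM with RMC-6236 and 77.5 with the combination, and Thy1 6.11 and 19.2, with no overlap between those arms. Pdgfrb went the other way, from 83.6 to 68.5, also with no overlap, and Col1a1 averaged 1811 and 1698. The other fibroblast markers averaged higher with the combination than with RMC-6236. LUM also rose in the human lines without any tumour stroma. In PSN1 it averaged 12.7 FPKM in controls, 60.4 with RMC-6236 and 76.7 with the combination, and in SW1990 0.302, 2.02 and 22.4. In cultured KPC cells Lum stayed near 0 and Thy1 at 0. Mrc1 averaged 17.6 FPKM in controls, 13.4 with RMC-6236 and 25.2 with the combination.

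The epithelial sum, over 6 markers, moved in the opposite direction, with 3068 to 3795 FPKM in controls, 2786 to 4955 with tazemetostat, 1416 to 1955 with RMC-6236 and 833 to 1358 with the combination. Krt8, Krt18 and Krt19 carry this sum. Epcam in controls overlapped both arms with RMC-6236, and Cldn4 averaged 8.40 in controls, 6.05 with RMC-6236 and 10.8 with the combination. Neutrophil markers (7 genes, 3 of them at 1 FPKM or more in controls and 5 in the combination, with Mpo at 0 there) had median sums of 12.1, 11.8, 16.1 and 88.7 in the same order of arms. The endothelial sum of 5 markers had medians of 8.69, 8.78, 9.32 and 21.3. T cell markers stayed near 0, with median sums of 0.298, 0.152, 0.284 and 1.08 FPKM. Acinar markers ranged from 5.14 to 29.2 FPKM in controls, 0.359 to 239 with tazemetostat, 0.239 to 65.8 with RMC-6236 and 64.0 to 2406 in the combination, which overlapped both single-drug arms. The part of these cells in the changes of Mmp2, Mmp3, Mmp14 and Timp1 was not tested. In cultured KPC cells Mmp2 was at or near 0, Cd3e and the other T cell markers summed to a median of 0, and the fibroblast sum had medians of 41.7 FPKM in controls and 65.7 with RMC-6236, with 4 of 9 markers at 1 FPKM or more. The fibroblast medians in controls, RMC-6236 and the combination were 29.8, 117.5 and 121.4 in PSN1 and 1.19, 4.62 and 27.3 in SW1990.

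**Figure D5:**
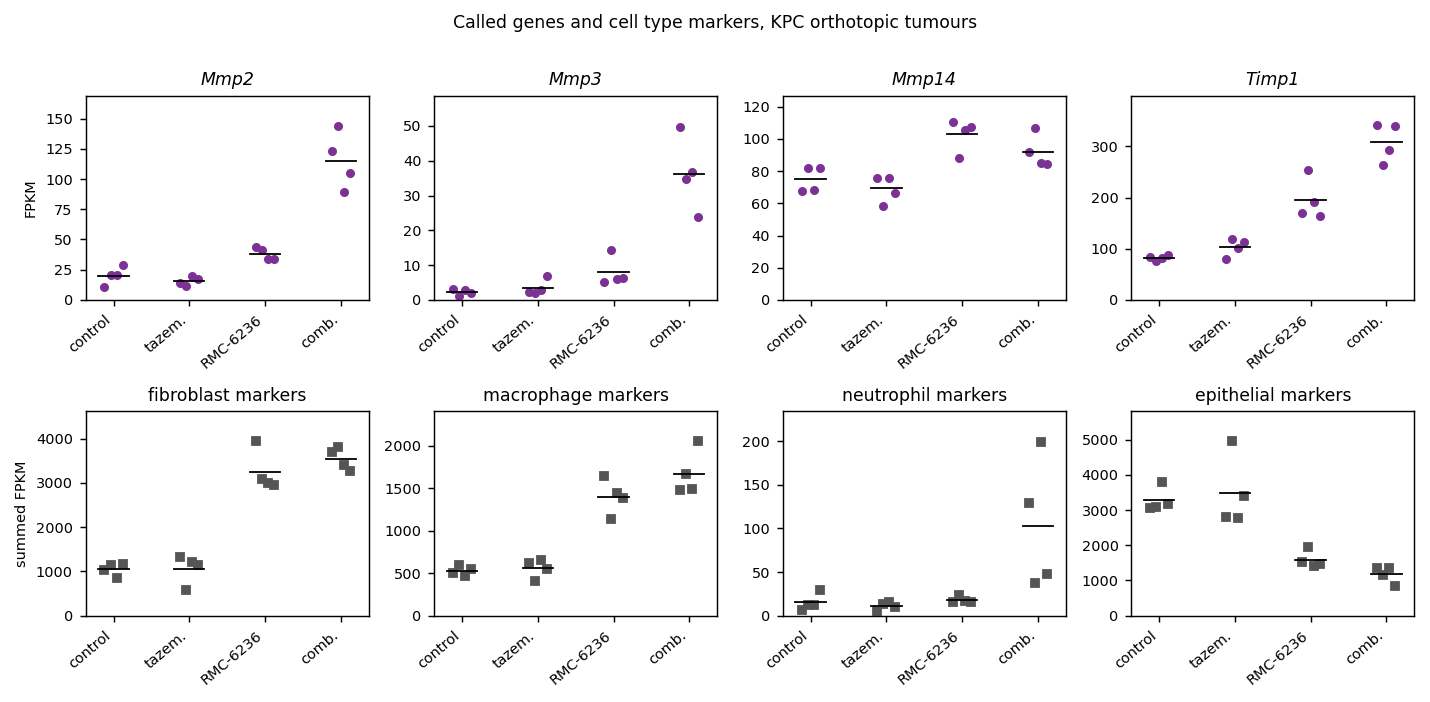
FPKM of the 4 members called against control in KPC tumours (top) and summed FPKM of marker genes of 4 cell types (bottom), 1 point per tumour, 4 an arm, with a bar at the mean and axes from 0. Fibroblast and macrophage sums, like the 4 genes, are higher in all RMC-6236 and combination tumours than in controls, and epithelial sums are lower.

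Other metalloproteinases were described from a list of 15 genes per species. In PSN1 5 were tested, and with RMC-6236 3 rose and 1 fell, beside 45.8% and 34.6% of all genes, with a median difference of 0.29 beside 0.08 over all genes. MMP24, a membrane-type enzyme, went from 4.18 ± 0.18 to 19.7 ± 0.37 FPKM (SD, n = 3), and MMP15, another, reached 12.2 ± 0.15 with the combination from 5.18 ± 0.03 in controls. In SW1990 4 were tested, and MMP28 (epilysin) went from 46.9 ± 2.22 to 111 ± 2.57 with RMC-6236. In KPC cells the 4 tested genes, Mmp11, Mmp15, Mmp19 and Mmp28, rose with RMC-6236 (37.9% of all genes rose; median 1.07 beside 0.02), with Mmp11, a stromelysin of stromal cells, at 4.999 ± 0.31 in controls and 18.6 ± 0.12. In tumours 7 were tested, and with RMC-6236 3 rose (20.3% of all genes) and Mmp28 fell (19.2%), from 22.8 ± 0.69 to 15.5 ± 2.35 FPKM (SD, n = 4). Mmp8, the collagenase of neutrophils, was called with the combination at 1.80 ± 0.57 against 0.256 ± 0.09 FPKM in controls, and its interaction was called too (1.11, adjusted p = 0.00646). With controls under 1 FPKM, Mmp8 could pass the floor only through treated arms where it was high, so both calls carry that selection. The neutrophil marker sum, carried by S100a8 and S100a9, was also highest in the combination, while Ly6g was not. Ly6g averaged 11.5 FPKM in control KPC cells and 0.496 in control tumours, so it does not mark neutrophils alone here.

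Inhibitors and activators outside the 10 genes came from a list of 16. With RMC-6236 7 of 13 tested rose and 4 fell in PSN1, beside 45.8% and 34.6% of all genes (median 0.50 beside 0.08). In SW1990 3 of 11 rose and 7 fell, beside 30.7% and 41.7% (median -0.78 beside -0.06). In KPC cells 6 of 12 rose and 4 fell, beside 37.9% and 35.8% (median 0.26 beside 0.02), and in tumours 2 of 14 rose and 4 fell, beside 20.3% and 19.2% (median -0.05 beside 0.01). The urokinase receptor PLAUR fell in both human lines, from 37.6 ± 0.79 to 10.6 ± 0.23 FPKM in PSN1 and from 12.5 ± 0.88 to 3.99 ± 0.16 in SW1990, and Plaur fell in tumours from 57.6 ± 6.55 to 29.3 ± 3.68. CD44, a docking site for MMPs at the cell surface, fell in all 4 models with RMC-6236, in PSN1 from 129 ± 1.14 to 49.6 ± 0.42. TIMP2, the inhibitor that also brings MMP2 to MMP14, rose with RMC-6236 in KPC cells from 194 ± 3.51 to 364 ± 5.78, and in SW1990 it reached 125 ± 1.24 with the combination from 47.6 ± 1.67.

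A2M, a broad protease trap, rose with tazemetostat in PSN1 (difference 1.71, adjusted p = 1.8e-11) and in KPC cells (1.69, adjusted p = 7.1e-10), from under 0.1 FPKM in controls to 2.30 ± 0.11 and 2.39 ± 0.12. With controls that low, A2M could pass the floor only through treated arms where it was high, so these p-values carry that selection. With the combination it reached 11.4 ± 0.23 FPKM in PSN1 and 3.27 ± 0.22 in KPC cells. LCN2, which binds MMP9 and protects it, rose with the combination over RMC-6236 alone in all 4 models, with combination means of 24.5 ± 0.60 FPKM in PSN1, 152 ± 1.70 in SW1990 and 246 ± 6.30 in KPC cells (n = 3) and 33.4 ± 17.2 in tumours (n = 4). In the tumours Reck, a membrane-anchored MMP inhibitor, and Tfpi2 had called interactions (0.93, adjusted p = 0.0044, and 1.34, adjusted p = 0.0251).

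ADAM and ADAMTS proteases, some of which TIMP3 inhibits, were read from a list of 17. ADAM8 fell with RMC-6236 in the human lines, from 20.9 ± 0.58 to 3.44 ± 0.22 FPKM in PSN1 and from 20.9 ± 0.48 to 4.56 ± 0.21 in SW1990. In KPC tumours Adam8, which myeloid cells also make, rose from 8.78 ± 1.15 to 16.5 ± 6.27 (adjusted p = 0.0101). In tumours 9 of 16 tested rose with RMC-6236 and 2 fell, beside 20.3% and 19.2% of all genes (median 0.40 beside 0.01), and the procollagen proteinase Adamts2 went from 1.45 ± 0.42 in controls to 7.22 ± 1.81 with the combination. ADAMTS15 rose with RMC-6236 in all 3 cell lines and its interaction was called in tumours (1.20, adjusted p = 0.0132).

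AP-1 and ETS factors, from a list of 13, split by gene. FOSL1 (FRA-1) fell with RMC-6236 from 83.8 ± 4.53 to 4.55 ± 0.72 FPKM in PSN1 and from 131 ± 4.38 to 6.57 ± 0.69 in SW1990, and Fosl1 fell in tumours from 26.6 ± 2.75 to 8.20 ± 2.01. ETV4 fell in all 4 models, in KPC cells from 66.9 ± 1.18 to 4.84 ± 0.41. Against these, ELF3, an epithelial ETS factor, rose with RMC-6236 in both human lines, from 2.11 ± 0.05 to 20.4 ± 0.30 in PSN1 and from 9.35 ± 0.21 to 37.6 ± 1.62 in SW1990. In KPC cells Jun rose from 7.98 ± 0.22 to 34.9 ± 1.48 and Fosl2 from 7.86 ± 0.29 to 27.2 ± 0.45. With RMC-6236 the counts were 7 higher and 6 lower of 13 in PSN1 (45.8% and 34.6% of all genes), 5 and 6 of 11 in SW1990 (30.7% and 41.7%), 6 and 6 of 12 in KPC cells (37.9% and 35.8%) and 3 and 6 of 13 in tumours (20.3% and 19.2%). Its members moved in both directions in each model. With tazemetostat FOS fell in PSN1 from 80.7 ± 1.22 to 34.7 ± 0.87, while Fosl1 rose in KPC cells from 29.2 ± 3.34 to 43.4 ± 1.87.

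Matrix proteins that MMPs cut came from a list of 12. In tumours 11 of 12 rose with RMC-6236 and 1 fell, beside 20.3% and 19.2% of all genes (median 1.13 beside 0.01), and the combination gave the same counts against control, beside 26.7% and 25.7% (median 1.38). With tazemetostat alone 0 of the 12 were called in tumours, as for all 13545 genes tested there (0% rose and 0% fell). In PSN1 3 of 6 tested rose and 2 fell, beside 23.6% and 22.5% of all genes. In SW1990 3 of 4 rose and 1 fell, beside 23.1% and 14.4%, and in KPC cells 5 of 9 rose and 4 fell, beside 18.6% and 25.5%. In the tumours Col1a1, a chain of collagen I, went from 486 ± 73.0 to 1811 ± 275 FPKM with RMC-6236. Col1a2, the other chain, went from 28.9 ± 5.71 to 138 ± 21.1 and to 312 ± 10.4 with the combination. Eln (elastin) reached 33.4 ± 12.9 with the combination from 3.80 ± 0.72, with a called interaction (1.78, adjusted p = 0.0245). Col1a1, Col1a2 and Col3a1 are also in the fibroblast list, so the fibroblast sum moved with them by construction. In PSN1 COL3A1 rose with RMC-6236 from 3.39 ± 0.32 to 33.2 ± 0.52.

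For the MMP and the TIMP with the widest span of arm means in each table, genes among the 3 with the closest pattern over its libraries are named by Pearson's r of log2(FPKM + 1), across 12 libraries in cells and 16 in tumours that share the same arms. In PSN1 MMP1 was closest to VGF (r = 0.996), ZC3H12C (0.996) and PHETA1 (0.993), and TIMP1 to PDIA4, INHBA and LIPG (0.997 to 0.999). In SW1990 MMP13 was closest to CYP2T1P (0.998) and ACSS1 (0.997), and TIMP1 to GFPT2, PI3 and LRP5 (0.988 to 0.989). In KPC cells Mmp13 was closest to Slc16a3 (0.996), Ero1l and Steap4, and Timp3 to Rdh10 (0.999), Tuft1 and Pdcl3. In tumours Mmp3 was closest to Cytip (0.966), Pdpn (0.965) and Lilra6 (0.962), and Timp1 to Cfp (0.980), Ltb4r1 and Atp1b3. VGF, for instance, had mean levels of 4.13, 23.7, 0.684 and 3.03 FPKM in control, tazemetostat, RMC-6236 and combination, the order of MMP1, and Pdpn had 5.79, 7.07, 12.03 and 22.95 FPKM, the order of Mmp3. INHBA, a subunit of activin, had 18.5, 32.2, 5.27 and 8.92 FPKM, the order of TIMP1.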

How the data were processed

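RNA-seq of 52 samples in 4 tables was used, and 15 further labelled samples, subcutaneous tumours, were not analysed here. The deposited values are FPKM per gene, made by the authors with FastQC 0.11.2, STAR 2.5.3a and StringTie 1.3.1c, per the submitters' processing notes, which list hg38. The mouse build, and whether counting used strand, are not given in the sources used here. No value column was left unmapped (0).

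Groups came from the sample labels. Differences of log2(FPKM + 1) were tested with limma 3.58.1 in R 4.3.3 (all 4 arms of a table in 1 fit, eBayes with trend and robust), for genes at 1 FPKM or more in 3 libraries (cells) or 4 (tumours). P-values were adjusted by Benjamini-Hochberg over all genes tested in each of 6 contrasts per table, at a threshold of 0.05. The procedure was tested on simulated data. Alternatives were a pseudocount of 0.1, no filter, rescaling by the median ratio, a replicate block, plain eBayes, the compared arms only, and leaving out each library. Depth is unknown, so no counting interval is given.

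The members and lists were chosen with earlier results of these data known. Members are all named. From the other lists, genes named were among the 4 called genes with the largest differences per list, table and contrast. Genes of like pattern were among the 3 with the highest Pearson's r. Some genes these rules would name are not reported here.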

Additional observations from a re-analysis of the deposited data

Results flagged for a closer look

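Among the 36 gene and arm groups of 4 tumours that were examined, 1 had a sample far from the others: Mmp3 with RMC-6236, where replicate 2 read 14.5 FPKM. Chance flags about 1 in 20 such groups.

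In some comparisons every sample of a treated arm lay on 1 side of its controls in one model and on the opposite side in another. The difference between models was not tested in any of them. Between the human lines, TIMP1 under the combination against control was -0.48 in PSN1 and 0.089 in SW1990. The SW1990 call (adjusted p = 0.0323 by limma) was lost with the replicate block (0.0532), after rescaling (0.0571), with plain eBayes (0.0634), with the compared arms only (0.0553) and without control replicate 2 or 3 or combination replicate 3 (0.0737 to 0.147). TIMP3 with RMC-6236 against control was -0.69 in PSN1 and 0.39 in SW1990. With the combination it was -1.27 and 0.25 against control, and -0.85 and 0.20 against tazemetostat.

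Between KPC cells and KPC tumours, Mmp3 was -0.78 in cells and 1.405 in tumours with RMC-6236 against control. With the combination it was -0.32 and 3.51 against control, and -0.82 and 3.13 against tazemetostat. Timp1 was -0.59 in cells and 1.20 in tumours with RMC-6236 against control. With the combination it was -0.53 and 1.88 against control, and -1.001 and 1.58 against tazemetostat.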

How the results depend on the processing

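Over 180 gene results and their alternatives other than leaving out a library, 1050 values were recomputed: 1024 kept direction and side of the threshold, 22 lost a call, 4 gained one and 0 reversed. Of 2376 values with a library left out, 2327 kept both. Of the counts of members called, tazemetostat in PSN1 went from 5 to 8 with no filter on low values, and the PSN1 interaction from 4 to 2 with a pseudocount of 0.1. The tumour interaction count was 1 to 2 with a library left out, and 2 without tazemetostat replicate 4 or RMC-6236 replicate 2. The cause was not tested, except that without the filter more members are tested.

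For same-numbered samples of different arms, the deviations from each gene's arm mean were correlated. These correlations ran from -0.05 to 0.16 in PSN1, -0.16 to 0.39 in SW1990, -0.09 to 0.13 in cultured KPC cells and -0.40 to 0.34 in the tumours. Their medians were 0.016, -0.004, 0.015 and -0.117. Differently numbered samples were not compared, so whether samples of a number were handled together was not tested. With the replicate block the members called with tazemetostat in PSN1 were 5, as without it, and all member counts stayed within 1.5 times. It lost the combination calls against control of MMP14 (adjusted p = 0.0664 by limma) and TIMP1 (0.0532) in SW1990 and Mmp14 in tumours (0.0514), and the SW1990 TIMP3 interaction (0.0511). It gained Mmp10 in tumours, combination against tazemetostat (0.0203). Values of genes under about 1 FPKM depend on the pseudocount, and without read totals low values have no counting error.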
